A study of Mus musculus with 30 samples.

Results

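The genes described here are 42 genes of DNA replication and of the repair of replicated DNA, out of 55416 genes in the count table. They were chosen by name for what their proteins do, with earlier results of these data known. They were followed in bulk RNA of 30 mouse fracture calluses, the tissue that bridges a broken bone. P-Apex1KO mice (Prrx1-Cre+;Apex1 C/C) carry a Cre recombinase under the Prrx1 promoter, active in limb bud mesenchyme and the cells that descend from it, and a floxed Apex1 gene, which codes for a redox factor and base excision repair enzyme. Blood, vessel and other cells without Cre keep it. WT littermates were Prrx1-Cre+/-;Apex1 C/+, Apex1 C/C or Apex1 C/+, so the WT group holds floxed alleles and, in part, Cre. Mice 7 to 12 weeks old received a closed non-stabilized fracture of the tibia, and the callus was taken at 3, 6, 10 and 14 days post fracture (dpf). At 3-dpf there were 4 WT and 4 P-Apex1KO samples, at 6-dpf 5 and 3, at 10-dpf 4 and 3, and at 14-dpf 4 and 3. Sexes were mixed except at 14-dpf, where all 3 P-Apex1KO samples were female and the WT samples were 1 female and 3 males.

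A cell copies its genome once per division. Before S phase the MCM proteins are loaded onto replication origins as a ring-shaped helicase by CDC6 and CDT1. In S phase, CDC45 and the GINS complex join the ring to form the active CMG helicase, primase and polymerase alpha start the new strands, and the clamp PCNA, placed by the RFC complex, holds the other polymerases on the DNA. BRCA, RAD54, BLM and Fanconi anaemia proteins repair broken or stalled forks, and the kinases ATR, ATM, CHEK1 and CHEK2 watch over the process. Most of these genes are transcribed under E2F factors when cells enter the cycle. In a callus, dividing cells include skeletal progenitors, proliferating chondrocytes and blood cell precursors of the marrow.

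Libraries held 18334389 to 43111491 counts. All 42 genes had at least 85 counts in every sample and passed the filter on low counts in every comparison. Levels are given as CPM, counts brought to a common library size with TMM factors of the 30 samples. Groups were compared with the quasi-likelihood test of edgeR, with a term for sex, p-values were adjusted after Benjamini-Hochberg across every gene tested, and a gene is called at an adjusted p under 0.05. The labels do not say whether samples came from separate mice, so p-values measure the spread between these samples. In bulk RNA, fewer cells of a type and less RNA per cell cannot be told apart. Apex1 itself was lower and called in P-Apex1KO at 6-dpf (log2 fold change −0.67, adjusted p = 0.0071) and 10-dpf (−0.65, adjusted p = 0.0278). At 14-dpf it did not pass the test (−0.29, adjusted p = 0.367), although its P-Apex1KO range of 14.2 to 18.6 CPM lay under the WT range of 19.8 to 27.2 CPM. At 3-dpf it did not pass the test (−0.15, adjusted p = 0.927), and 1 of the libraries labelled P-Apex1KO, replicate 4, was at 34.6 CPM, above every WT library. A library of the 3-dpf P-Apex1KO group, replicate 1, stood apart from its group. Its 12 erythroid precursor markers summed to 167 CPM against 1761 to 2441 CPM in the other 3, and its 10 neutrophil precursor markers to 508 CPM against 3419 to 5173 CPM. Replicate 1 of WT at 3-dpf was also low in erythroid markers, at 277 CPM against 1052 to 2434 CPM in the other 3.

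Per kilobase of annotated exon, the level of the 42 genes spanned from 1.23 CPM per kb for Xrcc2, a gene of homologous recombination, and 1.26 CPM per kb for Chek1, the kinase that restrains S phase, to 72.9 CPM per kb for Ddb1 (means over the 8 groups). Ddb1 is an adaptor of a ubiquitin ligase used in the repair of UV damage and in many other processes. Pcna followed at 44.3 CPM per kb. The MCM subunits lay close together on this scale, from 10.3 CPM per kb for Mcm2 to 22.9 CPM per kb for Mcm6, whereas Mcm10, which is not part of the ring, was at 2.24 CPM per kb. The 9 recombination and crosslink repair genes lay at 1.23 to 4.3 CPM per kb.

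The course over time was shared by most of the genes. The highest of the 8 group means was that of WT at 3-dpf for 35 of the 42 genes, and the lowest was that of WT at 14-dpf for 34. The WT mean was lower at each time than at the one before in 26 genes, and the P-Apex1KO mean in 9. The P-Apex1KO mean lay above the WT mean in 4 genes at 3-dpf, in 7 at 6-dpf, in 24 at 10-dpf and in 37 at 14-dpf. These raw means lean on single libraries: P-Apex1KO replicate 1 was lowest of its group in 37 genes at 3-dpf, and replicate 2 in 39 at 6-dpf. In the edgeR fits with sex, fold changes were positive in 13, 17, 26 and 37 of the 42. Among all genes tested, 49.3%, 51.9%, 49.5% and 53.2% were positive at the same times. Sample names change in the labels between 6- and 10-dpf, so batch and time cannot be told apart across that step, and levels on its 2 sides are set side by side only.

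**Figure D1:**
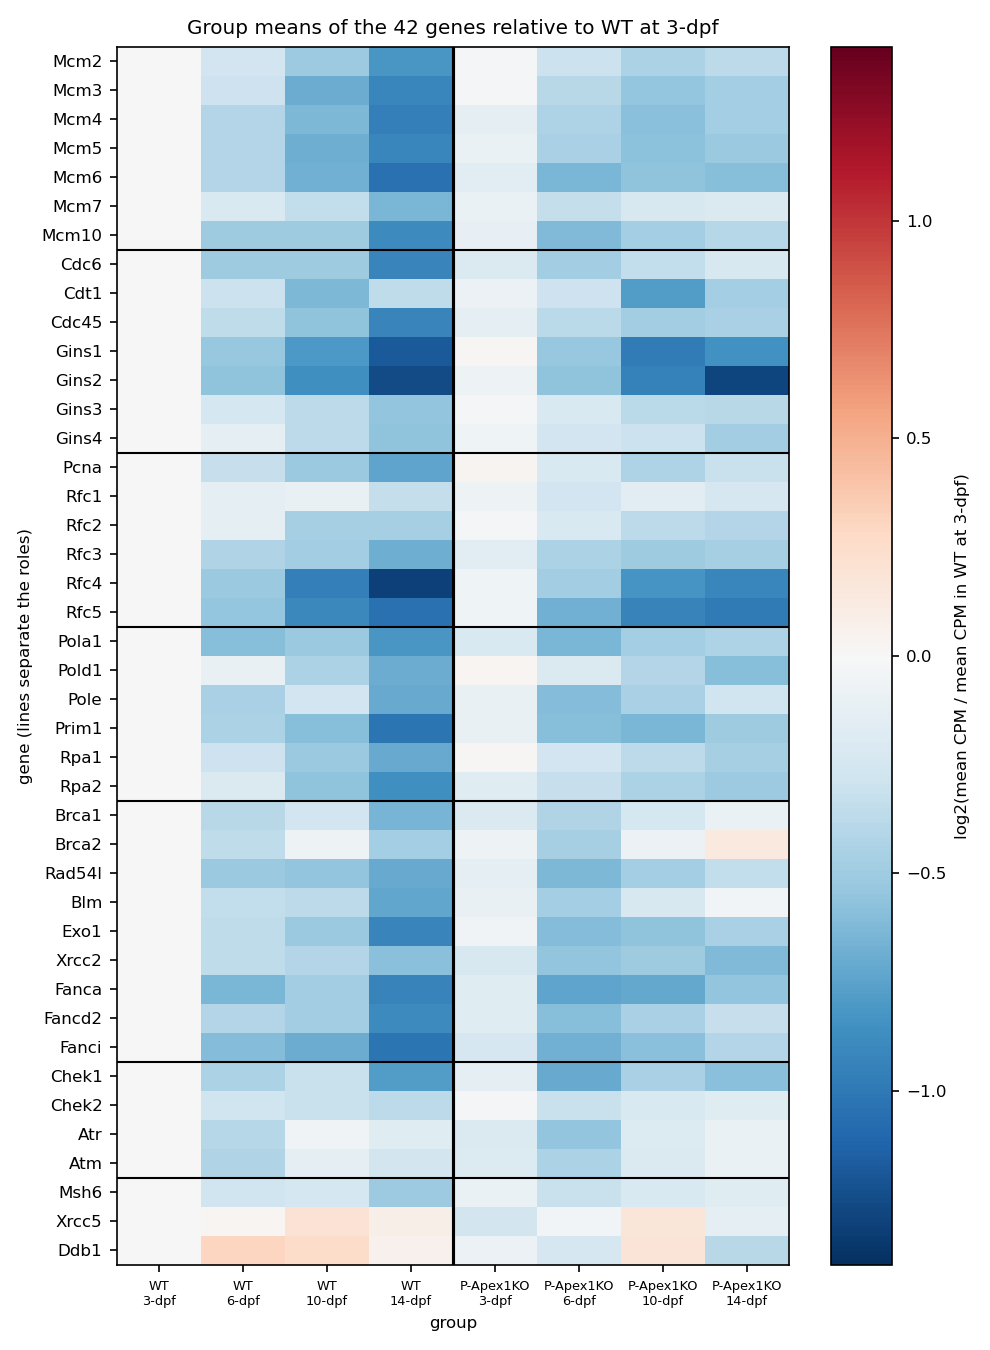
Group mean CPM of the 42 genes as a log2 ratio to WT at 3-dpf (colour), with 1 row per gene, lines between roles, and 1 column per group of genotype and dpf. WT at 3-dpf is the highest group in 35 genes and WT at 14-dpf the lowest in 34.

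Values in every sample are given for genes of several roles. Mcm2, a subunit of the MCM ring, was at 74.2, 114, 127 and 90.2 CPM in the WT samples of 3-dpf, at 80.9 to 88.3 CPM (median 84.9) in the 5 of 6-dpf, at 70.9, 66.8, 58.2 and 88.6 CPM at 10-dpf, and at 58.1, 54.4, 56.7 and 61.5 CPM at 14-dpf. In P-Apex1KO, Mcm2 was at 49.4, 132, 111 and 110 CPM at 3-dpf, 89.7, 65.8 and 91.7 CPM at 6-dpf, 79.5, 72.6 and 71.5 CPM at 10-dpf, and 70.9, 88.8 and 76.2 CPM at 14-dpf. The lowest of the 3-dpf P-Apex1KO samples was replicate 1, which was the lowest of its group in 37 of the 42 genes, and the lowest of 6-dpf was replicate 2, the lowest in 39, whose 12 muscle markers summed to 19891 CPM, the most of any sample.

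Pcna was at 108, 137, 154 and 121 CPM in WT at 3-dpf, 102 to 109 CPM (median 103) at 6-dpf, 82.6, 77.7, 94.2 and 108 CPM at 10-dpf, and 72.2, 81.6, 79 and 80.1 CPM at 14-dpf. In P-Apex1KO it was at 94.6, 155, 138 and 146 CPM, 127, 90 and 120 CPM, 92.2, 99.6 and 98.6 CPM, and 102, 109 and 103 CPM at the same times. The genotypes overlapped until 10-dpf and were apart at 14-dpf.

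Brca1, whose product acts in homologous recombination, was at 36.7, 48.7, 56.6 and 40.2 CPM in WT at 3-dpf, 28.6 to 38.5 CPM (median 35.6) at 6-dpf, and 39.7, 39.3, 30.1 and 42.8 CPM at 10-dpf. In P-Apex1KO it was at 23.1, 45.3, 41.3 and 48.4 CPM at 3-dpf, 37.5, 27.2 and 37.6 CPM at 6-dpf, and 46.3, 35.9 and 33.3 CPM at 10-dpf. The genotypes overlapped at all 3 times.

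Chek1 was at 16.6, 17.7, 19.3 and 17.2 CPM in WT at 3-dpf, 9.54 to 15.2 CPM (median 12.9) at 6-dpf, 15.5, 14.7, 11 and 16 CPM at 10-dpf, and 8.76, 10.4, 10.4 and 11.6 CPM at 14-dpf. In P-Apex1KO it was at 13.4, 16.8, 17 and 17.2 CPM, 11.2, 8.04 and 13.2 CPM, 16, 11.9 and 11 CPM, and 14.1, 11 and 10.4 CPM. The genotypes overlapped at every time. The kinase gene Atm also fell from 3- to 6-dpf in WT. Its WT mean was higher at 14-dpf (59.3 CPM) than at 6-dpf (52.7 CPM). The WT mean of Chek1 was lower at 14-dpf (10.3 CPM) than at 6-dpf (13.1 CPM). Atm was at 78.2, 64.5, 64.3 and 76.2 CPM in the WT samples of 3-dpf, 49.2 to 55.2 CPM (median 52.9) at 6-dpf, 65.4, 69.1, 61.8 and 61.7 CPM at 10-dpf, and 59.4, 54.5, 61.2 and 62 CPM at 14-dpf. Its P-Apex1KO samples were at 54.6, 48.5 and 52.9 CPM at 6-dpf, 66.4, 58.9 and 59.9 CPM at 10-dpf, and 69, 69.2 and 61.3 CPM at 14-dpf, overlapping WT each time. Ddb1 was at 597, 518, 511 and 586 CPM in WT and 495, 526, 602 and 473 CPM in P-Apex1KO at 3-dpf, and at 657, 668, 696 and 621 CPM and 516, 668 and 692 CPM at 10-dpf, with overlap at both times.

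**Figure D2:**
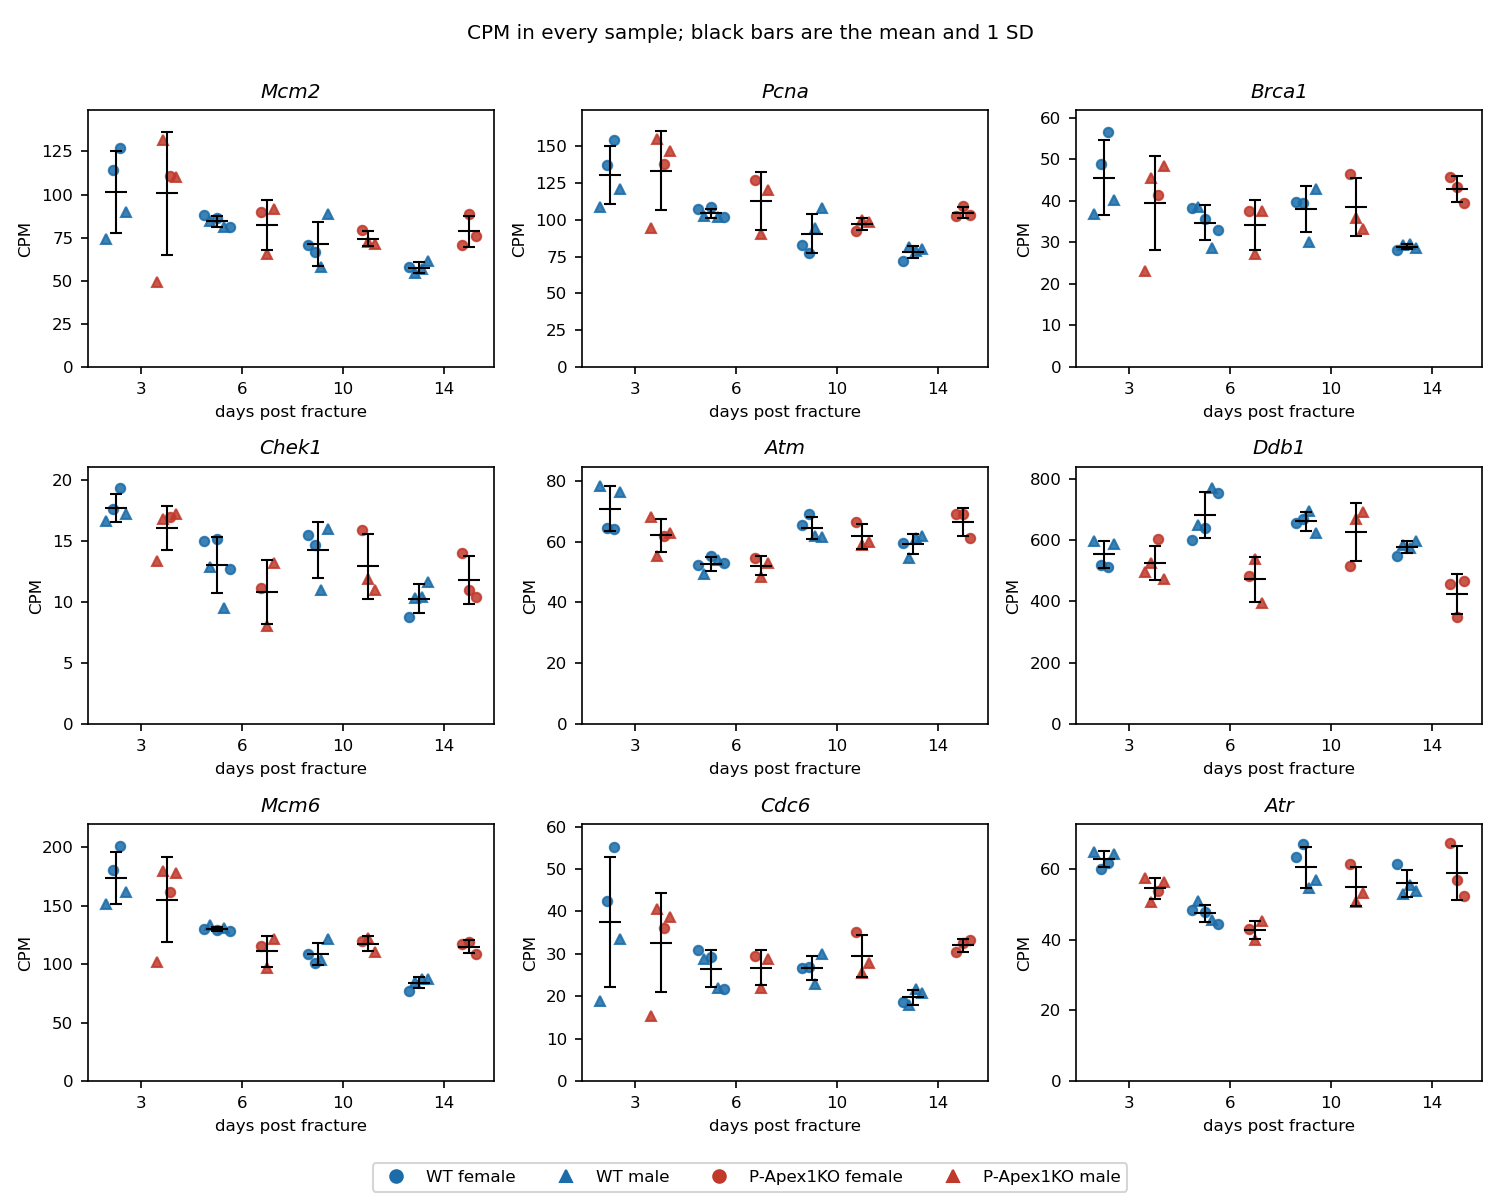
CPM (y axis, from 0) against dpf (x axis) for 9 of the genes, with a point per sample, circles for females, triangles for males, blue for WT and red for P-Apex1KO, and black bars at the mean and 1 SD. Mcm6 and Cdc6 of P-Apex1KO lie above WT at 14-dpf with no overlap, while Ddb1 of P-Apex1KO lies below WT at 6- and 14-dpf.

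Within groups, most of the genes rose and fell together from sample to sample. Over the 30 samples, each centred on its group's mean, the median Pearson correlation of a gene with the mean of the other 41 was 0.83, against a median of −0.06 for 20600 other genes, and 35 of the 42 exceeded 0.5. This was not particular to the 42: their mean correlated with the mean of the 20 mitosis genes at 0.97 in the same way. Single libraries weigh on these correlations. The mean log2 CPM of the 42, relative to the 30-sample mean, was −0.24 in P-Apex1KO 3-dpf replicate 1, against 0.33 to 0.42 in the rest of its group. It was −0.31 in P-Apex1KO 6-dpf replicate 2, against 0.02 to 0.03. The correlations were not computed without these libraries. The samples share library preparation and composition with each other, and the correlations are a description only. Mcm2 was highest at 0.95. The lowest were Ddb1 (−0.40), Atm (−0.27), Xrcc5 (−0.04), which codes for the Ku80 subunit of end joining, Atr (0.01) and Gins2 (0.14).

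Promoters of these genes are shown as a description, and those of Atm and Ddb1 are from the genes with the lowest correlations. RefSeq promoters (250 bases before to 50 bases after the start, assembly GRCm38.p6) were found for 33 of the 42 genes. The words TTTCCCGC, TTTCGCGC, TTTGCCGC and TTTGGCGC, which are forms of the E2F motif, were searched on both strands, with overlapping words counted as 1 site. At least 1 site lay in 13 of the 33 genes (39.4%), against 2.26% of 32851 promoters in all, and 2 sites lay in Mcm3, Mcm6, Mcm7 and Rfc3 (12.1%, against 0.0913% of all). CCAAT, on either strand, lay in 23 of the 33 (69.7%), against 37.4% of all. By role, E2F words lay in 4 of 6 MCM genes, 3 of 4 licensing genes, 2 of 5 polymerase, primase and RPA genes, 1 of 5 clamp and loader genes, 1 of 6 recombination genes, 1 of 4 checkpoint kinases and 1 of 3 other repair genes. Absence of an E2F word did not go with low correlation alone. Among the genes with the highest correlations within groups, Mcm2, Brca1 and Mcm10 (0.95 each) held none. Mcm7 (0.95) and Mcm6 (0.94) held 2 sites each. The first 2 sequences are those of Mcm3 and Mcm6, the first in order of the 4 with 2 sites, and capitals mark E2F words and CCAAT on either strand:
Mcm3 (GRCm38.p6, chr1:20820263-20820562, minus strand): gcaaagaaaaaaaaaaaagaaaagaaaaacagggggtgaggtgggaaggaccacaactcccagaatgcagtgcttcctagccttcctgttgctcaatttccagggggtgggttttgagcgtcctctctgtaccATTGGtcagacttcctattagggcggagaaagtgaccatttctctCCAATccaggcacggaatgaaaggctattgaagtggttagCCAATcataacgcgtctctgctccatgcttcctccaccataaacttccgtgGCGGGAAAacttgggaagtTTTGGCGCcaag
Mcm6 (GRCm38.p6, chr1:128359656-128359955, minus strand): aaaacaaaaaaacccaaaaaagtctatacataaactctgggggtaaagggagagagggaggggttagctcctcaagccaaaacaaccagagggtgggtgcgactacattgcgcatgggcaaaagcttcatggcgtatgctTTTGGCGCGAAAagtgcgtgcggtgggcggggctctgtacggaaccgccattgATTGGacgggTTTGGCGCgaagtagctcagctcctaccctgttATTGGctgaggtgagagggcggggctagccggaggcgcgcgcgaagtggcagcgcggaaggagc
The Atm promoter holds 1 CCAAT and no E2F word, and that of Ddb1 holds neither:
Atm (GRCm38.p6, chr9:53536622-53536921, minus strand): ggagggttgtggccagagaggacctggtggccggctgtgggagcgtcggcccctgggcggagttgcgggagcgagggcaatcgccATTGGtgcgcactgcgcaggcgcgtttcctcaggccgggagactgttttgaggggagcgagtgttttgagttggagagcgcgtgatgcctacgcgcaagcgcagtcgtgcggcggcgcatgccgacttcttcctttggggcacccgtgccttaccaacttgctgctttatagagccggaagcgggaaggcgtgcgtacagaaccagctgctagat
Ddb1 (GRCm38.p6, chr19:10605347-10605646, plus strand): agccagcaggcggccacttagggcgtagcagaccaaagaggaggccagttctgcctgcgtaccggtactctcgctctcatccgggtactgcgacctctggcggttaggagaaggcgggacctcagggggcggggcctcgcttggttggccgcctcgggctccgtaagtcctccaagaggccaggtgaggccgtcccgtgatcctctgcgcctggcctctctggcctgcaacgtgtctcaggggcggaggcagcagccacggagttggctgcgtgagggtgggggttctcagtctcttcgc
A match of letters is a description of these windows and not a site at which binding was measured.

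From 3- to 6-dpf, 23 of the 42 genes fell in WT. None rose, and the median log2 fold change of the 42 was −0.42, where 15.1% of all 20468 genes tested were lower, 15.4% were higher and the median was −0.03. The fall took in every role, with 3 of 7 MCM genes, 3 of 7 licensing and CMG genes, 5 of 6 clamp and loader genes, 4 of 6 polymerase, primase and RPA genes, 4 of 9 recombination genes, 3 of 4 checkpoint kinases and 1 of 3 other repair genes called.

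The largest falls were in 2 Fanconi anaemia genes. Fanci was at 16, 23.4, 23.1 and 21.1 CPM in WT at 3-dpf and at 9.67 to 15.9 CPM (median 13.8) at 6-dpf (log2 fold change −0.67, SE 0.18, adjusted p = 0.0113). Fanca was at 17.2, 21, 26.1 and 20.6 CPM and then at 11.7 to 15.4 CPM (median 13.5), a change of −0.67 (SE 0.15, adjusted p = 0.00267). In both, the 6-dpf samples lay under every 3-dpf sample.

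Pola1, the catalytic subunit of polymerase alpha, fell by 0.64 on the log2 scale (SE 0.15, adjusted p = 0.00389), from 57.4 to 71.2 CPM at 3-dpf to 33.3 to 49.4 CPM at 6-dpf. Gins2 and Gins1, of the GINS complex, fell by 0.60 (SE 0.11, adjusted p = 0.000503) and 0.56 (SE 0.16, adjusted p = 0.0132). Rfc5, of the clamp loader, fell by 0.57 (SE 0.10, adjusted p = 0.000542), from 35.1 to 40.5 CPM to 25 to 27.9 CPM. Ddb1 was the only gene of the 42 with a positive fold change, at 0.27. It was not called by edgeR (adjusted p = 0.0737), but DESeq2, which called 20 of the 42 lower, called it higher, as did edgeR with at least 10 counts required in every sample and without any 1 of WT 6-dpf replicate 1, P-Apex1KO 3-dpf replicate 3 and P-Apex1KO 6-dpf replicates 2 and 3.

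In P-Apex1KO, 8 of the 42 were lower from 3- to 6-dpf and 0 were higher, with a median of −0.32, where 6.91% of all genes tested were lower, 7.1% were higher and the median was 0.01. All 8 were among the 23 called in WT (8 of 8 and 8 of 23), an overlap that was not computed for all genes. Rfc5 fell by 0.61 (SE 0.12, adjusted p = 0.00348), Chek1 by 0.58 (SE 0.17, adjusted p = 0.0305) and Fanca by 0.57 (SE 0.17, adjusted p = 0.0368). Pole, the catalytic subunit of polymerase epsilon, fell by 0.50 (SE 0.12, adjusted p = 0.0114), Gins2 by 0.48 (SE 0.12, adjusted p = 0.0164) and Xrcc2 by 0.35 (SE 0.11, adjusted p = 0.0482). The other 2 were Atr and Rpa1, a subunit of the single-strand binding protein RPA. With 1 sample left out, Xrcc2 lost its call in 13 of 16 fits, Fanca in 7 and Chek1 in 4. Pole and Gins2 lost it in 1 each, and Rfc5 in 0. The change of the genotype difference from 3- to 6-dpf was tested directly: 0 of the 42 passed, against 0.987% lower and 0.318% higher of all genes. At an unadjusted p under 0.05, 1 of the 42, Ddb1, was lower (−0.42, SE 0.16, adjusted p = 0.293) and 0 were higher, against 7.01% and 5.48% of all genes. DESeq2 called 0 as well. The next smallest p-values were those of Atm (0.21, SE 0.12, adjusted p = 0.528), Xrcc5 (0.23, SE 0.14, adjusted p = 0.542) and Rfc3 (0.17, SE 0.14, adjusted p = 0.698).

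Cell markers changed over the same step. In WT, 11 of 11 chondrocyte and 8 of 10 osteoblast markers rose, 9 of 10 macrophage markers and 15 of 20 mitosis genes fell, and 0 of the 12 erythroid and 10 neutrophil precursor markers were called. In P-Apex1KO, 10 of 11 chondrocyte markers, 1 of 10 osteoblast markers and 4 of 12 T and NK cell markers rose, 5 of 10 macrophage markers and 8 of 20 mitosis genes fell, and again 0 erythroid and neutrophil precursor markers were called. Their part in the falls of the replication genes was not tested. Single libraries moved the counts of the 42 genes. In WT the count was 12 without WT 3-dpf replicate 3, 15 without WT 6-dpf replicate 1 (14 lower and 1 higher), 14 without replicate 3, 11 without replicate 4 and 13 without replicate 5, and 30 at most, without P-Apex1KO 3-dpf replicate 1. In P-Apex1KO the count was 30 without that same library, 5 without 3-dpf replicate 2, 4 without replicate 4, 1 without 6-dpf replicate 2, 4 without 6-dpf replicate 1, and 5 without WT 6-dpf replicate 3 or 5. With the 2 libraries of 3-dpf that were low in erythroid markers left out together, 36 were lower in WT and 30 in P-Apex1KO. Scaling by library size alone, which moved the WT median of all genes to −0.27, gave 36 lower in WT with a median of −0.66 for the 42. The shares of all genes given for this step belong to the main fit and not to these alternatives.

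**Figure D3:**
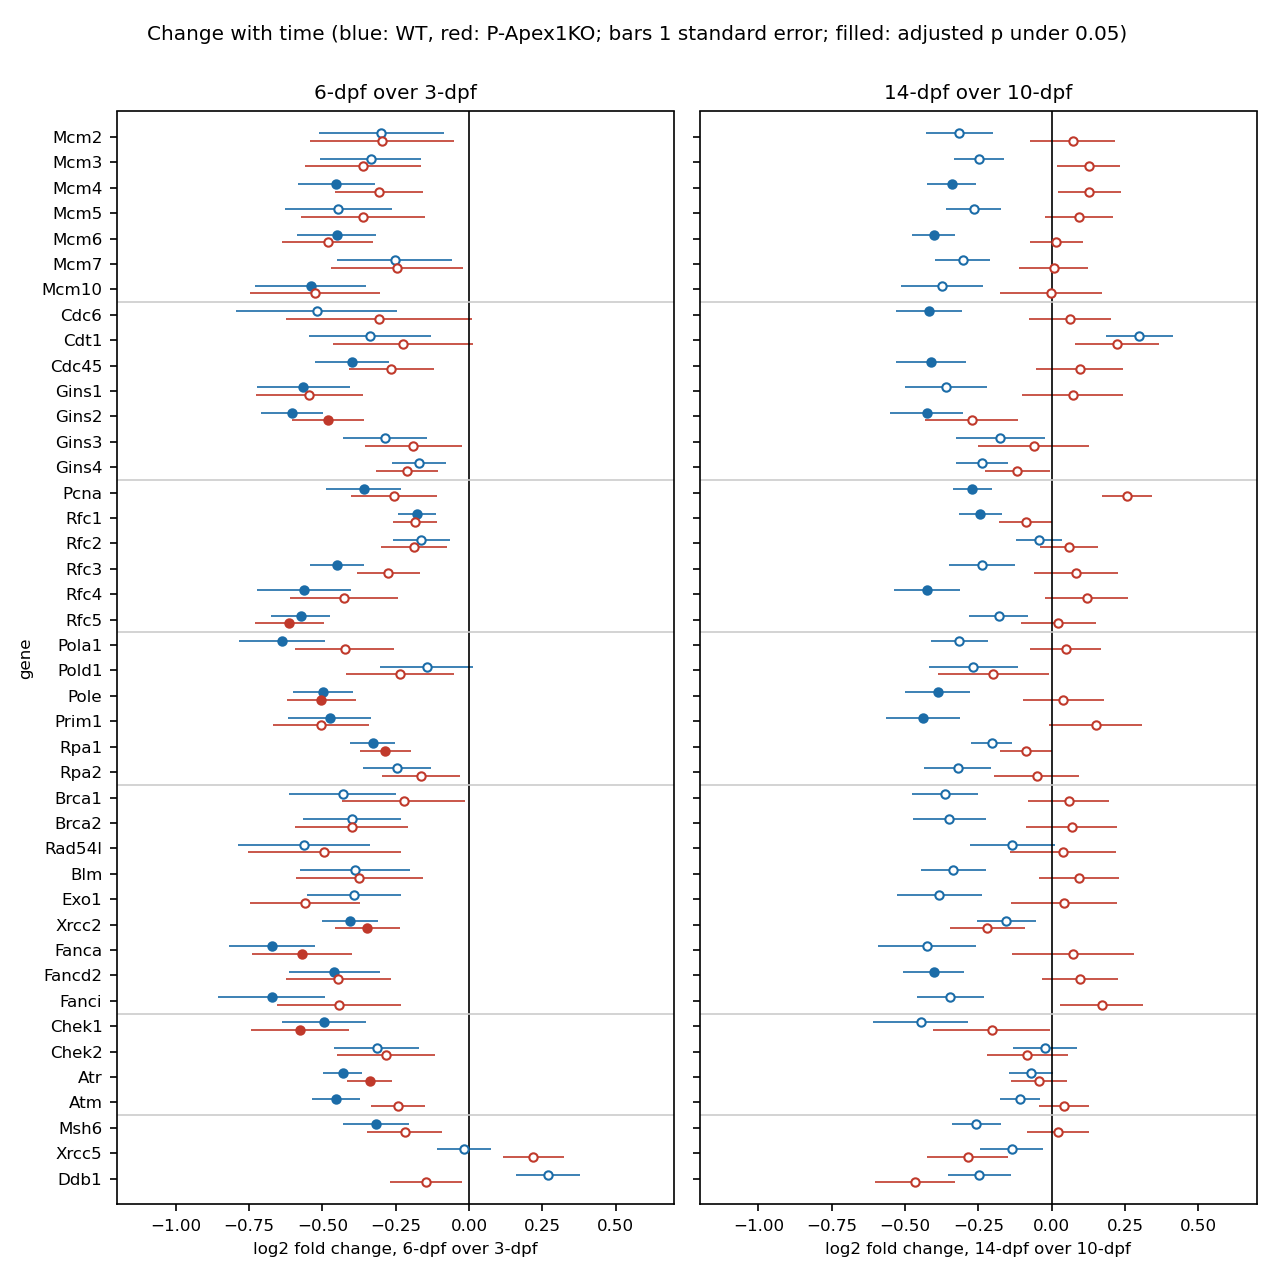
Log2 fold change (x axis) of each of the 42 genes (rows, grouped by role) for 6- over 3-dpf and 14- over 10-dpf, in WT (blue) and P-Apex1KO (red), with bars of 1 SE and filled points for genes called at an adjusted p under 0.05. The called genes number 23 and 8 at the first step and 11 and 0 at the second.

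Between genotypes, none of the 42 genes was called at 3-dpf by edgeR, as was the case for all 19866 genes tested (0% lower and 0% higher), and DESeq2 called 0 of the 42. Their median log2 fold change was −0.04, against −0.00 for all genes, and 2 were lower and 0 higher at an unadjusted p under 0.05, against 2.12% and 4% of all genes. These were the 2 large checkpoint kinase genes. Atr was at 64.8, 59.9, 61.8 and 64.1 CPM in WT and at 57.3, 50.6, 53.7 and 56.3 CPM in the libraries labelled P-Apex1KO (−0.22, SE 0.07, adjusted p = 0.768). Atm was at 68.1, 55.1, 62 and 62.9 CPM in the latter, overlapping the WT values given above (−0.22, SE 0.09, adjusted p = 0.785). Atr was the only gene of the 42 whose groups did not overlap at 3-dpf (1 lower, 0 higher), where 1.7% of all genes lay lower without overlap and 1.97% higher.

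The next smallest p-values at 3-dpf were those of Xrcc2 (−0.20, SE 0.10, adjusted p = 0.846) and Xrcc5 (−0.20, SE 0.11, adjusted p = 0.852). Xrcc2 was at 15.3, 16, 16.6 and 14.5 CPM in WT and at 12.3, 13.2, 13.5 and 14.6 CPM in P-Apex1KO, so that the groups overlapped by 1 sample each. Xrcc5 was at 21, 22.4, 20.9 and 17.6 CPM and at 15.8, 14.4, 21.3 and 16.9 CPM. Without P-Apex1KO replicate 1, the median of the 42 was 0.06 and 0 were called.

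At 6-dpf Ddb1 alone was called. It was at 598, 649, 638, 769 and 753 CPM in WT and at 483, 538 and 393 CPM in P-Apex1KO, with every P-Apex1KO sample under every WT sample (−0.51, SE 0.14, adjusted p = 0.0469). Thus 1 of the 42 was lower and 0 were higher, where 5.61% of all 20260 genes tested were lower and 5.31% higher. The median of the 42 was −0.04 and that of all genes 0.01, and under scaling by library size alone the medians were 0.15 and 0.20. Samples did not overlap in 4 genes, all lower in P-Apex1KO, and in 0 higher, where 11.9% of all genes lay lower and 8.71% higher without overlap. Beside Ddb1 these were Mcm6, at 129 to 133 CPM in WT and 115, 96.4 and 121 CPM in P-Apex1KO, Rfc1, at 72 to 78 CPM and 69.1, 65.5 and 69.5 CPM, and the exonuclease gene Exo1, at 14.6 to 15.3 CPM and 14.1, 9.18 and 14.5 CPM. Rfc1 and Exo1 were named for this after their values were seen. Atr, at 44.4 to 50.8 CPM (median 47.7) in WT and 43, 39.9 and 45.2 CPM in P-Apex1KO, overlapped. The call of Ddb1 was lost without any 1 of WT replicates 2, 3, 4 and 5 and P-Apex1KO replicates 1 and 3.

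Markers of other cells moved at 6-dpf at the same time. All 11 chondrocyte markers were lower in P-Apex1KO, with sums of 3138 to 5827 CPM against 36188 to 64949 CPM in WT, and 8 of 10 osteoblast markers were lower. Higher in P-Apex1KO were 11 of 12 muscle markers, 8 of 10 macrophage markers, 9 of 12 T and NK cell markers and 4 of 11 B cell precursor markers. None of the 12 erythroid, 10 neutrophil or 8 limb mesenchyme markers was called. The part of these cells in the level of Ddb1 or of the other genes was not tested.

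At 10-dpf none of the 42 was called by edgeR or DESeq2, where 3.44% of all 18910 genes tested were called lower and 3.01% higher. At an unadjusted p under 0.05, 0 of the 42 passed, against 11.4% of all genes lower and 12.9% higher. Their median was 0.06, against −0.00 for all genes. Samples did not overlap in 0 of the 42 in either direction, where 10.5% of all genes lay lower and 8.79% higher without overlap. The 4 smallest p-values were those of Rpa1 (0.15, SE 0.08, adjusted p = 0.264), Mcm3 (0.16, SE 0.11, adjusted p = 0.413), Cdc6 (0.18, SE 0.12, adjusted p = 0.424) and Mcm6 (0.12, SE 0.09, adjusted p = 0.466). Rpa1 was at 66.3, 63.7, 63.5 and 71 CPM in WT and at 74.2, 69.2 and 76.3 CPM in P-Apex1KO. Mcm3 was at 54.9, 57.7, 57.5 and 72.7 CPM and at 69.5, 70 and 63.6 CPM. Cdc6 was at 26.8, 27, 22.9 and 29.9 CPM and at 35.1, 25.5 and 27.9 CPM, and the genotypes overlapped in all 3 genes. WT replicate 4 was the highest WT sample in each, and without it Mcm7 and Blm were called higher (2 of the 42).

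From 10- to 14-dpf, genes of the group fell again in WT. Of the 42, 11 were lower and 0 higher, with a median of −0.31, where 4.92% of all 19705 genes tested were lower, 6.19% higher and the median was −0.00. Of these 11, 10 were also among the 23 that fell from 3- to 6-dpf in WT (10 of 11 and 10 of 23). The same overlap was not computed for all genes. Mcm6, which had been at 120, 123 and 110 CPM in P-Apex1KO at 10-dpf, fell in WT from 108, 101, 103 and 122 CPM to 77.2, 84.4, 87.4 and 87.7 CPM, with no overlap (−0.40, SE 0.07, adjusted p = 0.00346). Prim1, the small primase subunit, fell from 17, 17, 14.5 and 19.2 CPM to 11.4, 11.3, 14.4 and 13.5 CPM (−0.44, SE 0.13, adjusted p = 0.0403).

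Among the called genes, the other large falls were in genes that build or load the replication machine. Gins2 fell by 0.43 (SE 0.12, adjusted p = 0.0435), Rfc4 by 0.42 (SE 0.11, adjusted p = 0.0279), Cdc6 by 0.42 (SE 0.11, adjusted p = 0.0304) and Cdc45 by 0.41 (SE 0.12, adjusted p = 0.0422). The remaining 5 were Mcm4, Pcna, Rfc1, Pole and Fancd2. No checkpoint kinase was called in this step, although Chek1 had the largest fall of the 42 (−0.45, SE 0.16, adjusted p = 0.0958). The repair gene Fanca was not called either (−0.42, SE 0.17, adjusted p = 0.127). In P-Apex1KO, edgeR called 0 of the 42, where 0.228% of all genes were called lower and 0.0304% higher, and DESeq2 called 1, Ddb1. At an unadjusted p under 0.05, 1 was lower and 1 higher, against 8.72% and 5.54% of all genes. The median was 0.04, against 0.00 for all genes. Ddb1 was at 516, 668 and 692 CPM at 10-dpf and at 457, 349 and 466 CPM at 14-dpf (−0.47, SE 0.14, adjusted p = 0.155), and Pcna had a change of 0.26 (SE 0.08, adjusted p = 0.189). Xrcc5 (−0.29, SE 0.14, adjusted p = 0.368) and Xrcc2 (−0.22, SE 0.13, adjusted p = 0.459) followed.

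From 10- to 14-dpf in WT, 11 of 11 chondrocyte markers and 16 of 20 mitosis genes fell, and 0 of the 12 erythroid and 10 neutrophil precursor markers were called. Their part in the falls was not tested. The WT count of 11 moved with single libraries. It was 6 and 5 without WT 10-dpf replicates 1 and 2, 2 without replicate 4 (1 lower and 1 higher), and 2, 3, 7 and 4 without WT 14-dpf replicates 1, 2, 3 and 4. It was 19 without P-Apex1KO 14-dpf replicate 2.

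At 14-dpf, 9 of the 42 genes were higher in P-Apex1KO than in WT and 0 were lower. The median log2 fold change of the 42 was 0.46, where 4.28% of all 20228 genes tested were higher, 7.04% lower and the median was 0.04. At an unadjusted p under 0.05, 21 were higher and 0 lower, against 12.9% and 14.7% of all genes. In 26 of the 42 every P-Apex1KO sample lay above every WT sample, where 18.5% of all genes did so, and in 1, Ddb1, every P-Apex1KO sample lay below, where 23.4% of all genes did so. By role, 3 of 7 MCM genes, 2 of 7 licensing and CMG genes, 1 of 6 clamp and loader genes, 1 of 6 polymerase, primase and RPA genes, 2 of 9 recombination genes, 0 of 4 checkpoint kinases and 0 of 3 other repair genes were called.

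Among licensing and CMG genes, Cdc45 had the largest difference of the called genes in the fit with sex. It was at 10.8, 14.3, 16.2 and 15 CPM in WT and at 19.9, 21.3 and 17.7 CPM in P-Apex1KO (0.89, SE 0.17, adjusted p = 0.017). The lowest WT value of Cdc45 was that of the WT female. Cdc6, the loader of the MCM ring, was at 18.6, 18, 21.7 and 20.8 CPM and at 30.4, 32.5 and 33.3 CPM (0.81, SE 0.16, adjusted p = 0.0175). The WT and P-Apex1KO samples did not overlap in either gene.

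Mcm6 had the smallest p of the 42. It was at 118, 119 and 108 CPM in P-Apex1KO, above the WT values given for the fall from 10- to 14-dpf (0.60, SE 0.11, adjusted p = 0.0122). All 7 MCM genes had positive fold changes, from 0.44 to 0.60, and Mcm3 and Mcm4 were called with it. Pcna, whose values stand above, was called as well (0.56). Pola1 was at 32.3, 36.3, 39.7 and 40 CPM and at 50, 50.9 and 44.4 CPM (0.61, SE 0.13, adjusted p = 0.0266).

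The 2 called repair genes act in homologous recombination. Brca1 was at 28.1, 29.4, 29.6 and 28.7 CPM in WT and at 45.6, 43.3 and 39.5 CPM in P-Apex1KO (0.63, SE 0.13, adjusted p = 0.0185). Blm, a helicase that takes recombination intermediates apart, was at 27.4, 25.5, 25.7 and 23.8 CPM and at 43.3, 38 and 42.3 CPM (0.61, SE 0.13, adjusted p = 0.0237). Again no sample of 1 genotype lay within the range of the other. Of the 42, 5 had a negative fold change at 14-dpf and none of these was called. Ddb1 had the lowest (−0.35), at 549, 584, 575 and 596 CPM in WT and 457, 349 and 466 CPM in P-Apex1KO, and the others were Xrcc5, Cdt1, Atr and Xrcc2. Without the sex term, and in a single model of all 30 samples, Ddb1 was called lower. Of the promoters found, 4 of 8 of the genes called at 14-dpf and 9 of 25 of the others held an E2F word. The order was the opposite for the falls in WT, with 4 of 17 called and 9 of 16 other genes from 3- to 6-dpf, and 2 of 7 called and 11 of 26 other genes from 10- to 14-dpf.

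**Figure D4:**
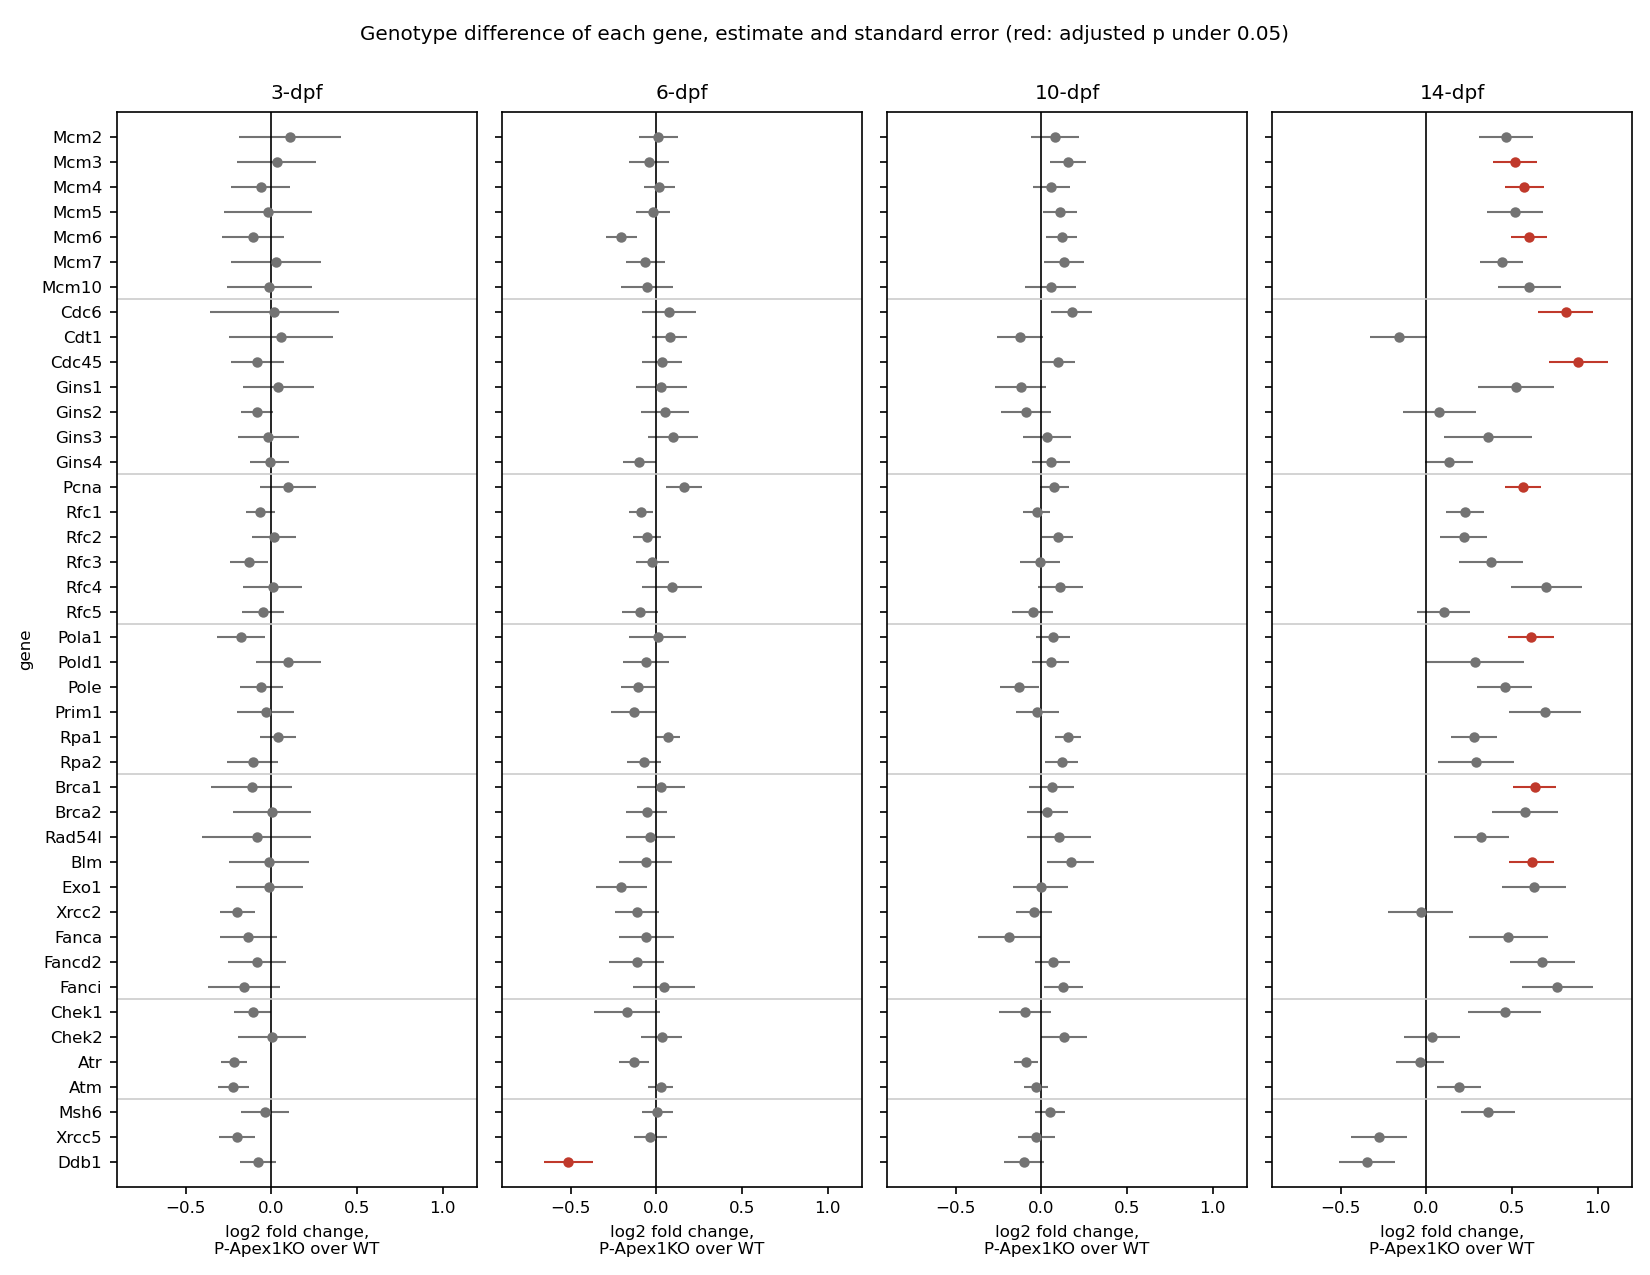
Log2 fold change of P-Apex1KO over WT (x axis) for each of the 42 genes (rows) at 3-, 6-, 10- and 14-dpf (panels), with error bars of 1 SE and red points for genes called at an adjusted p under 0.05. The number called is 0, 1, 0 and 9, and Ddb1 at 6-dpf is the only gene called lower.

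Sex and genotype were nearly tied at 14-dpf, and the fitted difference rests on the 1 WT female, which was below every WT male in 21 of the 42 genes, above every male in 6 and between them in 15. Without sex in the model 24 were higher and 1, Ddb1, was lower. DESeq2 called 16 higher, scaling by library size alone 22 (median 0.73, with all genes at 0.31), and 1 model over all 30 samples 7 higher and 1 lower, Ddb1. The shares of all genes given above belong to the main fit and not to these settings. The count was 3, 4 and 4 without WT replicates 2, 3 and 4, and 14 without P-Apex1KO replicate 2. Mcm6, Cdc6 and Cdc45 stayed called without any 1 of these WT samples, and Pcna without replicate 3 or 4. Mcm3, Mcm4, Pola1, Brca1 and Blm lost the call each time. No fit could be made without the WT female.

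The change of the genotype difference from 10- to 14-dpf was tested directly as well. By edgeR 0 of the 42 passed, where 0.0406% of all 19705 genes were higher and 0.396% lower, while 15 of the 42 were higher and 0 lower at an unadjusted p under 0.05 (5.05% of all genes were higher and 8.03% lower at that level). DESeq2 called 2, Mcm6 and Pcna. The median of the 42 was 0.34, against 0.00 for all genes. Pcna had the smallest p (0.53, SE 0.11, adjusted p = 0.0614), which passed without P-Apex1KO 10-dpf replicate 1 (1 of the 42 called). Mcm6 (0.42, SE 0.12, adjusted p = 0.172), Mcm4 (0.47, SE 0.14, adjusted p = 0.188) and Rfc4 (0.54, SE 0.19, adjusted p = 0.242) followed.

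Other genes of the same pathways were taken from 2 longer lists. Of 33 other replication genes, 16 fell from 3- to 6-dpf in WT, the largest change being that of Mcm8, a helicase of recombination (−0.78, adjusted p = 0.000181), and 9 fell in P-Apex1KO. From 10- to 14-dpf, 3 fell in WT, led by the kinase gene Cdc7 (−0.48, adjusted p = 0.0272), and 0 in P-Apex1KO. At 14-dpf 3 were higher in P-Apex1KO than in WT, led by Orc1, a subunit of the origin recognition complex (0.99, adjusted p = 0.0184).

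Of 33 other recombination and repair genes, 13 fell and 1 rose from 3- to 6-dpf in WT. The largest fall was that of Fancb, a Fanconi anaemia core gene (−0.82, adjusted p = 0.000238), and the gene that rose was Fancc (0.62, adjusted p = 0.0146). In P-Apex1KO 3 fell, led by Fancb (−1.10, adjusted p = 0.000446), and 2 rose, led by Lig4, the ligase of end joining (0.34, adjusted p = 0.0487). From 10- to 14-dpf, 2 fell in WT, led by Fancc (−0.37, adjusted p = 0.0378), and 0 in P-Apex1KO. Fancc was the 1 gene of this list called between genotypes at 6-dpf, lower in P-Apex1KO (−0.51, adjusted p = 0.046). At 14-dpf 1 was higher, Bard1, the partner of BRCA1 (0.66, adjusted p = 0.0483).

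Cell markers that moved beside the 42 genes at 14-dpf were many. The 20 mitosis genes, of which 11 were higher in P-Apex1KO, summed to 1831 to 2044 CPM against 1138 to 1384 CPM in WT. The 12 erythroid precursor markers, of which 9 were higher, summed to 2299 to 2702 CPM against 1009 to 1118 CPM. The 10 neutrophil precursor markers, of which 7 were higher, summed to 1998 to 2521 CPM against 934 to 1396 CPM. The sums of these lists did not overlap between genotypes. Nor did those of the T and NK cell list, at 60.9 to 136 CPM in P-Apex1KO and 36.5 to 40 CPM in WT. The B cell precursor list was apart as well, at 373 to 897 CPM and 262 to 317 CPM. Sums of the macrophage and muscle lists overlapped.

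Of 11 chondrocyte markers, 10 were higher and 1 lower in P-Apex1KO at 14-dpf, with sums of 11682, 7629 and 9419 CPM. The WT female was at 3767 CPM and the 3 WT males at 9230, 11328 and 9572 CPM, so the sums of the males overlapped P-Apex1KO and these calls rest on the WT female. Of 10 osteoblast markers 5 were lower, with sums of 19003 to 21793 CPM against 75509 to 101722 CPM, and of 8 limb mesenchyme markers 3 were lower. Of 10 macrophage markers 5 were higher and 2 lower, of 12 T and NK cell markers 1 was higher, and of 11 B cell precursor and 12 muscle markers 0 were called. No marker of any list was at 0 in every sample of a group. The part of each of these cell types in the level of the replication genes was not tested.

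**Figure D5:**
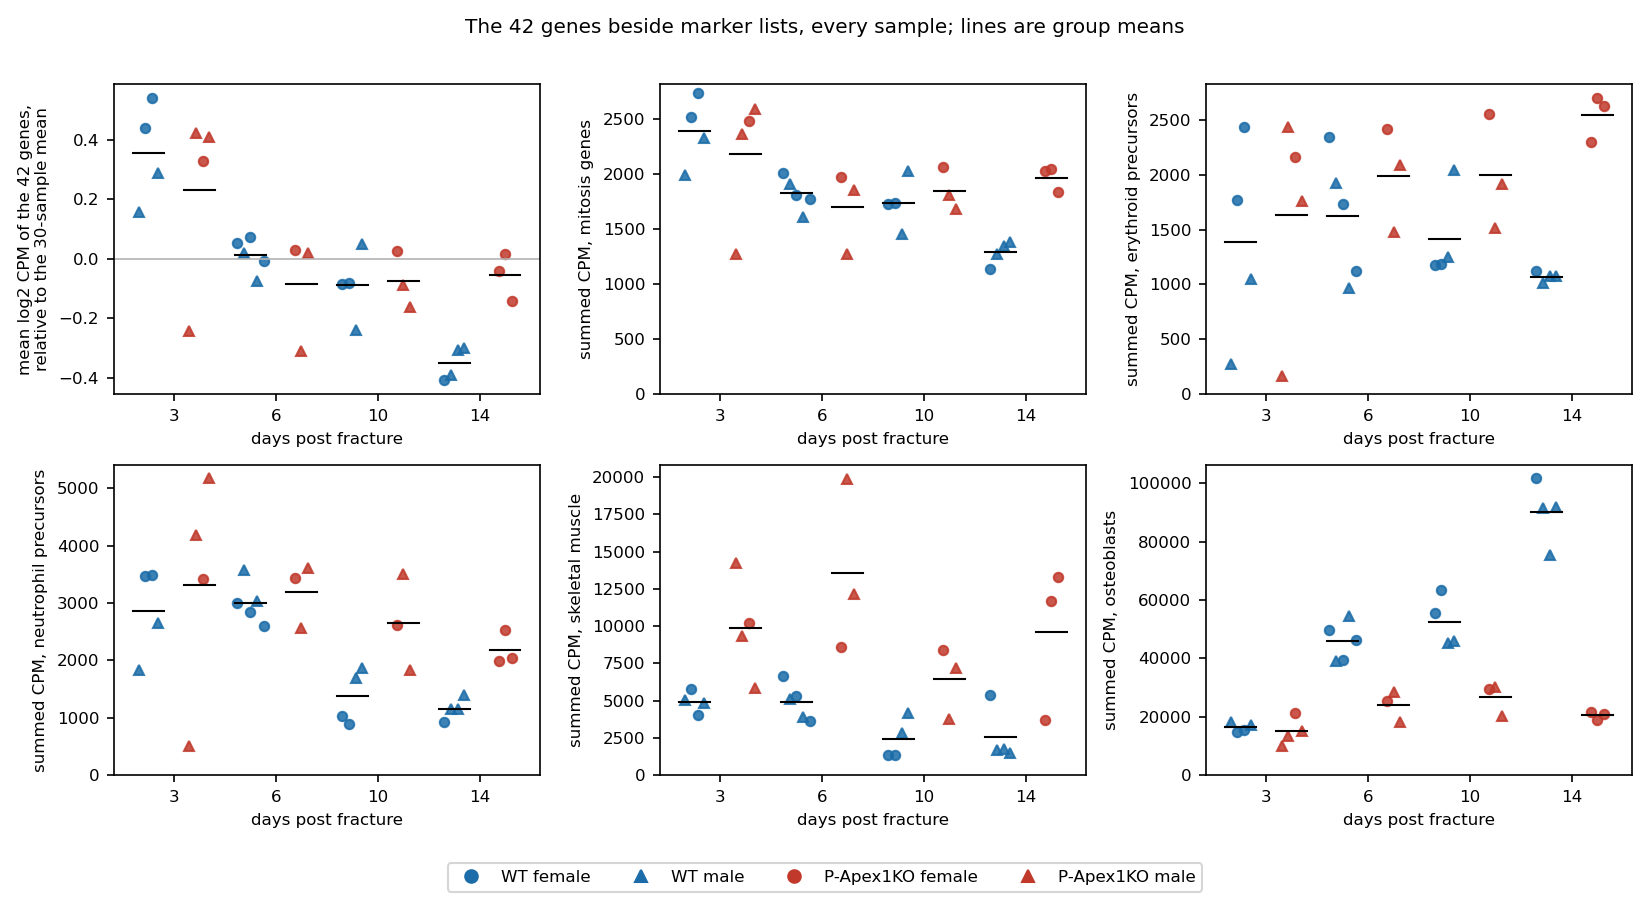
Mean log2 CPM of the 42 genes relative to their 30-sample mean (first panel, y axis) and summed CPM of the mitosis, erythroid, neutrophil, muscle and osteoblast lists (other panels, y axes) against dpf (x axis), with a point per sample, circles for females, triangles for males, blue for WT, red for P-Apex1KO, and lines at group means. In the first panel WT at 14-dpf lies at −0.41 to −0.30 and P-Apex1KO at 14-dpf lies at −0.14 to 0.02.

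Over the 10 comparisons tested, 14 of the 42 genes were called in 0, 10 in 1, 12 in 2 and 6 in 3. The 6 were Mcm4, Mcm6, Cdc45, Gins2, Pcna and Pole.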

How the data were processed

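RNA was depleted of ribosomal and beta globin RNA, libraries were made with a stranded total RNA kit and sequenced paired-end, and the authors aligned reads to mm39 with STAR 2.7.0d and used featureCounts to assign uniquely mapped reads, reverse strand, to Ensembl genes. The deposited values are raw counts per gene in 1 table. Gene IDs were matched to GENCODE M39 on GRCm39 (54749 of 55416). The counts of each time point were tested with edgeR 4.0.16 in R 4.3.3 (filterByExpr, TMM, robust quasi-likelihood F test, sex as covariate, Benjamini-Hochberg over all genes tested, threshold 0.05). Changes with time and of the genotype difference came from fits over 2 neighbouring time points. CPM used TMM factors of all 30 samples. Alternatives were DESeq2 1.42.0, DESeq2 size factors, library size alone, 2 other filters, no sex term, the replicate number as a block, 1 model over 30 samples, and each sample left out in turn. The edgeR script was tested on simulated data. The 42 genes, roles and all lists were chosen with earlier results of these data known. Sample values are given for Mcm2, Pcna, Brca1, Chek1, Atm and Ddb1 and for the 4 genes with the smallest p in a comparison of genotypes, and statistics for up to 6 called genes with the largest change, or, with none called, the 4 smallest p. Genes of other lists are named only for the largest called change in each direction, except 1 result that is not reported here. Promoters are RefSeq's (GRCm38.p6).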

Additional observations from a re-analysis of the deposited data

Results flagged for a closer look

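Among 50 groups of 4 or 5 samples examined for a sample far from the rest, by Dixon's criterion, 3 held one, and chance alone marks about 1 in 20 groups. In the 3-dpf P-Apex1KO group, Chek1 was at 13.4 CPM in replicate 1, and the nearest of the other samples was at 16.8 CPM. In the same library the mean level of the 42 genes, as log2 CPM relative to the 30-sample mean, was −0.24, and the nearest sample was at 0.33. In the 10-dpf WT group, Mcm3 was at 72.7 CPM in replicate 4, and the nearest sample was at 57.7 CPM. The groups of 3 samples were not examined in this way.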

How the results depend on the processing

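Counts below are called genes among the 42, and shares of all genes were given for the main fit only. Calls of all 42 genes were made under every setting. Fold changes of single genes were compared between settings only where the naming rule asks for their statistics in a comparison. Other fold changes in the text (Apex1, other lists, Pcna and Ddb1 at 14-dpf) were not compared in this way. Among those compared none turned its direction, and 775 values kept their side of the threshold, 96 lost the call and 5 gained it. For P-Apex1KO against WT at 14-dpf (9), DESeq2 gave 16, library size alone 22 and no sex term 25. For 6- against 3-dpf, library size alone gave 36 in WT (23) and 4 in P-Apex1KO (8), and leaving out both 3-dpf libraries low in erythroid markers, an alternative chosen after seeing the data, gave 36 and 30. For 14- against 10-dpf, no filter on low counts gave 7 in WT (11), and DESeq2 and no sex term each gave 1 in P-Apex1KO (0). For the change of the genotype difference from 10- to 14-dpf (0), DESeq2 gave 2. With 1 sample left out, the counts ranged from 0 to 1 at 6-dpf, 0 to 2 at 10-dpf, 3 to 14 at 14-dpf, 0 to 1 for the change from 10- to 14-dpf, 11 to 30 and 1 to 30 for 6- against 3-dpf in WT and P-Apex1KO, and 2 to 19 for 14- against 10-dpf in WT. The cause of these shifts was not tested. No fit could be made at 14-dpf without WT replicate 1, the only WT female. Replicate numbers are shared between genotypes. Deviations of same-numbered samples correlated at 0.06 to 0.39 at 3-dpf, highest for replicate 1, which was low in erythroid markers in both genotypes. At the later times they correlated from −0.25 to 0.18. Whether same-numbered samples share more than a number was not tested. With the replicate block in place of sex, 0 genes were called at 6-dpf (1) and 12 at 14-dpf. Depth did not limit detection of the 42 genes, since the lowest count was 85.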

Other observations

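Genes that supply nucleotides or drive S phase, and genes of mitosis, were followed beside the 42. Of 19 nucleotide supply and S phase regulators, 8 fell from 3- to 6-dpf in WT, led by Tk1, a thymidine kinase (log2 fold change −0.64, edgeR adjusted p = 0.00357), and 4 fell in P-Apex1KO. From 10- to 14-dpf 5 fell in WT, again led by Tk1 (−0.45, adjusted p = 0.0211), and 0 in P-Apex1KO. At 14-dpf 9 were higher in P-Apex1KO than in WT, led by E2f2 (1.15, adjusted p = 0.00451). Between genotypes 0 of the 19 were called at 6-dpf.

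Of 20 mitosis genes, 15 fell from 3- to 6-dpf in WT and 8 in P-Apex1KO, led in both by Bub1, a kinase of the spindle checkpoint (−0.78, adjusted p = 6.7e-05, and −0.79, adjusted p = 0.00105). From 10- to 14-dpf 16 fell in WT, led by Birc5, of the chromosomal passenger complex (−0.58, adjusted p = 0.0116), and 0 in P-Apex1KO. At 14-dpf 11 were higher in P-Apex1KO, led by Mki67, a coat protein of mitotic chromosomes (1.09, adjusted p = 0.00203). The change of the genotype difference from 10- to 14-dpf was called by edgeR in 0 of either list.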
